A study of Arabidopsis thaliana with 6 samples.

Results

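The mature miRNAs of the snrk2.2/3/6 mutant were set against those of the wild type (WT) over all mature sequences that were counted, 349 sequences of 214 miRNA families. The snrk2.2/3/6 triple mutant carries mutations in the genes of 3 protein kinases, SnRK2.2, SnRK2.3 and SnRK2.6, and WT is its Col-0 background. Each genotype had 2 libraries of rosette leaf RNA, taken as biological replicates from plants that had grown in soil for 3 weeks. Of the 6 libraries 4 were compared, and the other 2, of the mutant hyl1-2, entered the estimate of the spread. The hyl1-2 reads also counted in the minimum that decided which families and sequences were tested. The mutations are carried by the whole plant, the alleles are not given in the labels, and no treatment is named for any library. Because the table holds miRNAs only, neither the genotype nor the tissue could be checked against marker transcripts. A family is the number in the miRNA name, with all gene copies and both arms of the hairpin pooled. A target named below is that of the family, whose reads can be mostly of the arm that does not act on it. Reads were found for 102 families in the 4 libraries.

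Plant miRNAs are cut from hairpin transcripts by DICER-LIKE 1 together with the double-stranded RNA-binding protein HYL1 and the zinc finger protein SERRATE, and are then loaded into ARGONAUTE1, where they guide cleavage or translational repression of matching mRNAs. Many conserved families target transcription factors that set leaf shape, organ boundaries and phase change, others respond to the supply of copper, sulfate or phosphate, and a further group targets the silencing machinery itself. SnRK2.2, SnRK2.3 and SnRK2.6 are activated by the hormone abscisic acid (ABA) and phosphorylate transcription factors and channels in ABA responses.

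The sequences below are the leading members of the families whose share of the miRNA reads differed between the genotypes by edgeR's test, with near-identical copies that did not pass it. They are written 5′ to 3′ as deposited, in DNA letters, and the capitals mark the seed, bases 2 to 8. The first group shares the seed of miR165 and miR166, the second that of miR319, the third that of miR167, the fourth that of miR395 and the fifth that of miR398. The last set holds members with a seed of their own and the passenger strand of miR165a.
miR165a-3p/b: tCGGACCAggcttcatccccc
miR166a-3p/b-3p/c/d/e-3p/f/g: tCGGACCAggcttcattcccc
miR319a/b: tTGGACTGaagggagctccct
miR319c: tTGGACTGaagggagctcctt
miR167a-5p/b: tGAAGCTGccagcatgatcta
miR167d: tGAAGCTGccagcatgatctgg
miR395a/d/e: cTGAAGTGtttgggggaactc
miR395b/c/f: cTGAAGTGtttggggggactc
miR398b-3p/c-3p: tGTGTTCTcaggtcacccctg
miR398a-3p: tGTGTTCTcaggtcacccctt
miR163: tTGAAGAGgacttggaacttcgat
miR866-3p: aCAAAATCcgtctttgaaga
miR3932b-5p: tTTGACGTgctcgatctgctc
miR165a-5p: gGAATGTTgtctggatcgagg
Several of these copies are 1 base apart, with positions counted from 1 at the 5′ end. miR319c differs from miR319a/b by C20T, the miR166 sequence from miR165a-3p/b by C17T, miR395b/c/f from miR395a/d/e by A17G and miR398b-3p/c-3p from miR398a-3p by T21G.

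The miRNA content of the snrk2.2/3/6 libraries was lower than in WT, and unequally so. snrk2.2/3/6 replicate 1 had 29014 miRNA reads and replicate 2 had 10386, against 34567 and 30427 reads in WT replicates 1 and 2. The genome-matched small RNA reads of these libraries were close to each other, 16892896 and 16041013 in the snrk2.2/3/6 libraries against 16350213 and 16299073 in WT. Per 10000000 genome-matched reads, the unit called RPTM, the miRNAs summed to 17175 and 6475 in the snrk2.2/3/6 libraries, against 21142 and 18668 in WT. Both mutant libraries were below both WT libraries, replicate 1 at 86.3% and replicate 2 at 32.5% of the WT mean, and the exact two-sided permutation p was 0.333, the smallest that 2 libraries against 2 can give. Within each genotype the counts differed by more than sampling noise, with a chi-square per degree of freedom of 18.01 in snrk2.2/3/6 and 10.497 in WT. Each result below is therefore given for each library and on 2 scales. RPTM keeps a change that all miRNAs of a library share. The share, the percent of all miRNA reads of the library, removes such a change, and because shares sum to 100 a higher share of some families lowers that of others.

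In RPTM most families were lower in snrk2.2/3/6, but mainly in replicate 2. Among the 40 families that averaged 10 or more reads across the 4 libraries, which held 99.5% of the miRNA reads, 23 were below the WT mean in replicate 1 and 37 in replicate 2. The median family was at 79.4% of the WT mean in replicate 1 and at 27.7% in replicate 2. Replicate 1 was above replicate 2 for 38 of the 40, all but miR164 and miR858. Both mutant libraries lay below the WT mean for 23 families and above it for 3, the last being miR163, miR395 and miR866. Both libraries were at or below 50% of the WT mean for 11 families, namely miR160, miR164, miR165, miR169, miR170-5p/miR171a-5p, miR319, miR390, miR3932, miR394, miR399 and miR825. A stricter description asks that both mutant libraries lie outside the range of both WT libraries. By it 22 of the 40 families (55%) were below WT and 1 (2.5%), miR866, was above. Without snrk2.2/3/6 replicate 1 the families below WT were 37, and those above WT were 15 without snrk2.2/3/6 replicate 2 and 3 without WT replicate 2.

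As shares, the replicates of snrk2.2/3/6 resembled each other far more. The median family was at 91.4% of the WT mean in replicate 1 and at 84.9% in replicate 2, and replicate 1 was above replicate 2 for 25 of the 40. Both libraries were below the WT mean for 18 families and above it for 11. Both lay below both WT libraries for 15 families (37.5%) and above both for 10 (25%), or for 17 without snrk2.2/3/6 replicate 2. When the 95% Wilson intervals of the shares also had to be apart, an alternative chosen after seeing the data, 7 families remained below, miR159, miR161, miR162, miR165, miR169, miR319 and miR3932, and 5 above, miR156, miR163, miR167, miR395 and miR398. Such intervals cover counting error only.

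**Figure D1:**
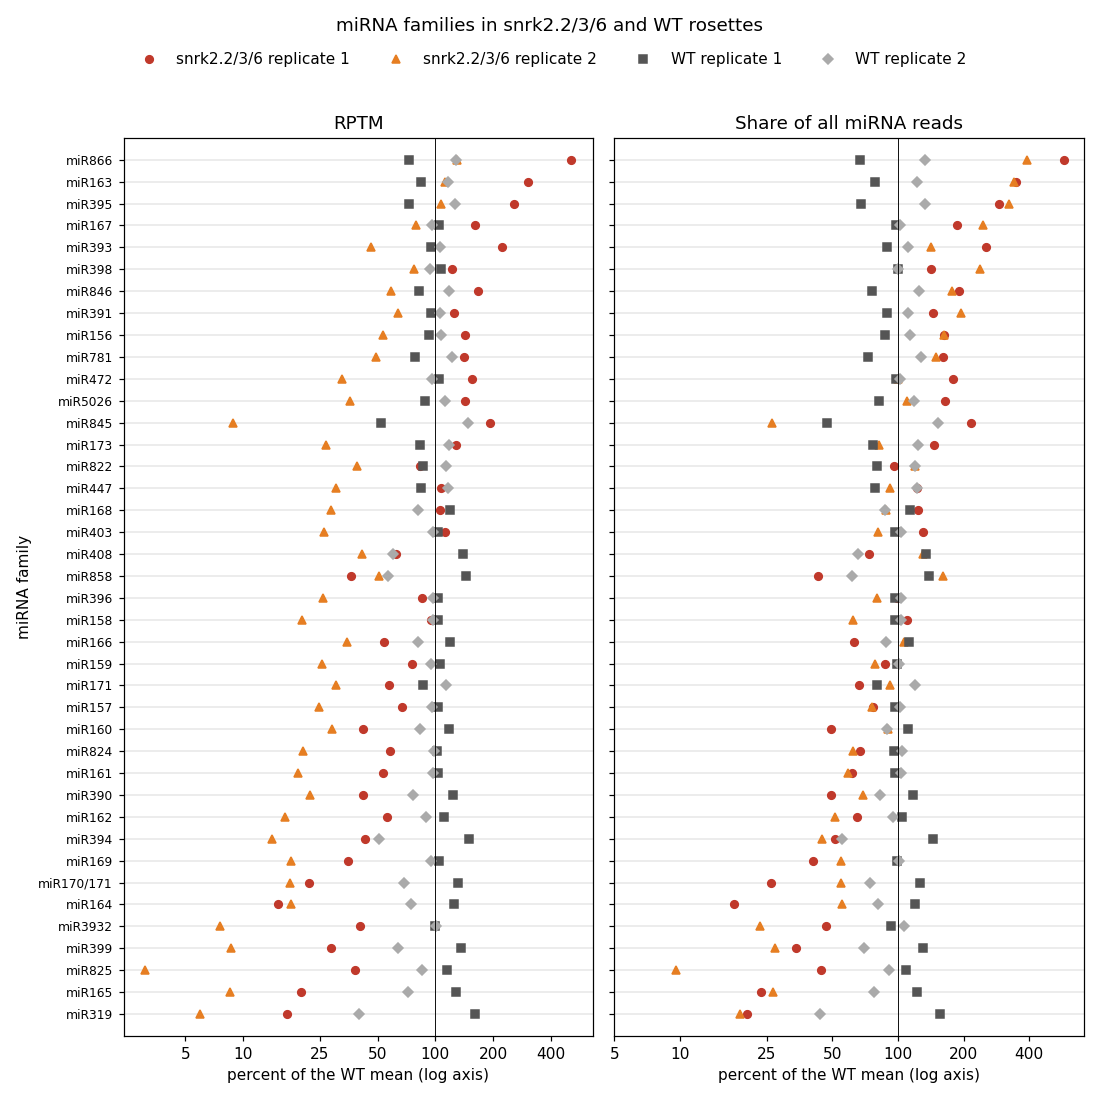
Each of the 40 miRNA families with a mean of at least 10 reads, as percent of the mean of the 2 WT libraries on a log axis, in RPTM (left) and as a share of all miRNA reads (right), with 1 point per library. In RPTM the triangles of snrk2.2/3/6 replicate 2 are below 100% for 37 families and the circles of replicate 1 for 23, while as shares both lie closer together.

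The 2 scales sorted the 40 families into 5 classes. Below WT on both scales, in both libraries, were 15 families (37.5%), which are miR157, miR159, miR161, miR162, miR164, miR165, miR169, miR170-5p/miR171a-5p, miR319, miR390, miR394, miR399, miR824, miR825 and miR3932. Above WT on both was 1 family (2.5%), miR866. For 7 families, miR158, miR160, miR166, miR171, miR396, miR822 and miR858, RPTM was below WT whereas the shares overlapped. For 9 families, miR156, miR163, miR167, miR391, miR393, miR395, miR398, miR781 and miR846, RPTM overlapped and the share was above WT. The remaining 8, miR168, miR173, miR403, miR408, miR447, miR472, miR845 and miR5026, overlapped on both scales. No family was below on 1 scale and above on the other.

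**Figure D2:**
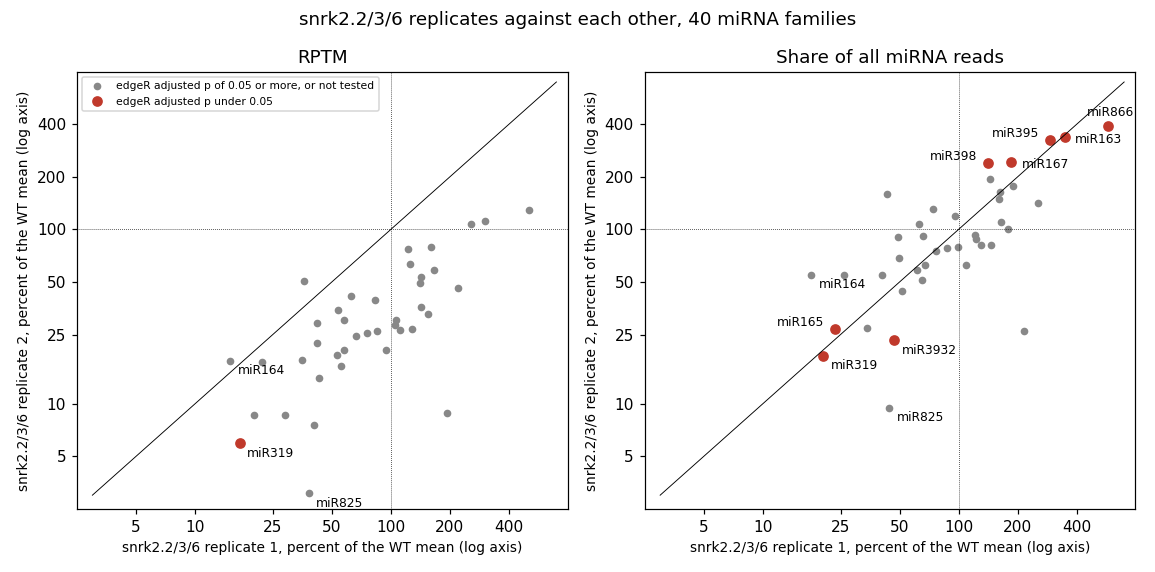
snrk2.2/3/6 replicate 2 against replicate 1 for the 40 families, each as percent of the WT mean on log axes, in RPTM (left) and as a share (right); red points passed edgeR's test, the solid line marks equal values and the dotted lines mark the WT mean. In RPTM 38 families lie below the line, and as shares the 8 families past the threshold lie on the same side of the WT mean in both replicates.

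Tests across libraries gave few calls in RPTM. By the quasi-likelihood test of edgeR, with p adjusted by Benjamini-Hochberg over the 39 families that averaged 10 or more reads across the 6 libraries, 1 family (2.56%), miR319, was lower in snrk2.2/3/6 in RPTM and 0 (0%) were higher, with 7 (17.9%) lower and 0 (0%) higher at an unadjusted p under 0.05. DESeq2 called 3 families lower and limma 5, and both called 0 higher. As shares, 3 families (7.69%) were lower, miR165, miR319 and miR3932, and 5 (12.8%) were higher, miR163, miR167, miR395, miR398 and miR866, with 7 (17.9%) in each direction at an unadjusted p under 0.05. The biological coefficient of variation, the spread between libraries beyond counting error, was 0.504 in RPTM and 0.284 as shares. The median log2 fold change of the 39 families was -0.84 in RPTM and -0.16 as shares, so that values near these are those of the typical family. The RPTM count rests on the mutant library used: it was 18 lower and 0 higher without snrk2.2/3/6 replicate 1, 1 lower and 1 higher without replicate 2, and 0 in either direction without either WT library. As shares, leaving out any 1 library lowered the counts, to 0 lower and 0 higher without WT replicate 1, 2 lower and 1 higher without WT replicate 2, 0 lower and 3 higher without snrk2.2/3/6 replicate 1, and 0 lower and 1 higher without replicate 2. The direction of each of the 8 families on the scale on which it was called was kept in all of these fits. With the replicate number as a block, 0 families were lower and 0 higher as shares.

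miR319, which targets TCP transcription factors of leaf growth, had 33 and 11 reads in the snrk2.2/3/6 libraries against 302 and 75 in WT. These are 19.5 and 6.86 RPTM against 185 and 46.0 RPTM. As a share of miRNA reads it was 0.114% (95% Wilson interval 0.0810 to 0.16%) and 0.106% (0.0592 to 0.190%) in the snrk2.2/3/6 libraries, against 0.874% (0.781 to 0.977%) and 0.246% (0.197 to 0.309%) in WT. The mutant libraries were alike and the WT libraries were far apart, without overlap between the genotypes. The family fell in snrk2.2/3/6, with a log2 fold change of -3.12 (SE 0.93, adjusted p = 0.0441, edgeR) in RPTM and of -2.34 (SE 0.63, adjusted p = 0.00545, edgeR) as a share. WT replicate 1 weighed most on this result, since without it the log2 fold change was -1.79 in RPTM (adjusted p = 0.848, edgeR) and -1.15 as a share (adjusted p = 0.388, edgeR). In RPTM the adjusted p by edgeR was 0.129 without WT replicate 2, 0.0708 without snrk2.2/3/6 replicate 2 and 0.00397 without snrk2.2/3/6 replicate 1. As a share it was 0.0148, 0.235 and 0.30 in the same order. The RPTM call was also lost without the filter on low counts and with the 2 genotypes fitted alone.

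The loss within the miR319 family lay in miR319a/b. This sequence, from MIR319a on chromosome 4 (12353109 to 12353129, plus strand, TAIR10.1) and MIR319b on chromosome 5 (16660469 to 16660489, minus strand), had 9 and 3 reads in the snrk2.2/3/6 libraries against 281 and 49 in WT. miR319c, from MIR319c on chromosome 2 (17029870 to 17029890, plus strand) and 1 base different, had 24 and 8 reads in the snrk2.2/3/6 libraries against 21 and 26 in WT. Per 100 reads of miR319c there were 37.5 and 37.5 reads of miR319a/b in the mutant libraries, against 1338 and 188 in WT. The share of miR319a/b fell by 3.98 on the log2 scale (adjusted p = 0.00364, edgeR), while miR319c had a log2 fold change of 0.14 (adjusted p = 0.840, edgeR). As a share, the call of miR319a/b was lost without WT replicate 1, where its log2 fold change was -2.38, and without either snrk2.2/3/6 library. In RPTM the log2 fold change of miR319a/b was -4.78 (adjusted p = 0.000961, edgeR). That call was lost without the filter on low counts, without snrk2.2/3/6 replicate 2 and without WT replicate 1, where the log2 fold change was -3.03.

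miR165, which with miR166 targets the class III HD-ZIP transcription factors of leaf polarity, had 154 and 63 reads in the snrk2.2/3/6 libraries against 957 and 537 in WT. Its share was 0.531% (95% Wilson interval 0.453 to 0.621%) and 0.607% (0.474 to 0.775%) in the snrk2.2/3/6 libraries, against 2.77% (2.60 to 2.95%) and 1.76% (1.62 to 1.92%) in WT. All intervals of the mutant were below those of WT. The share fell by 2.00 on the log2 scale (SE 0.42, adjusted p = 0.000235, edgeR). In RPTM the log2 fold change was -2.81 (SE 0.97, adjusted p = 0.0851, edgeR), with values of 91.2 and 39.3 in the snrk2.2/3/6 libraries against 585 and 329 in WT. The family was past the threshold in RPTM with DESeq2, with limma and with the replicate number as a block. It was not past it without the filter on low counts, with the 2 genotypes fitted alone or with the block crossed. With the replicate number as a block the share was not past the threshold. The share was not past the threshold without WT replicate 1 (adjusted p = 0.190, edgeR), snrk2.2/3/6 replicate 1 (0.118) or snrk2.2/3/6 replicate 2 (0.0829), and it was past it without WT replicate 2 (0.0142).

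miR166, with the same seed, did not share this decline in its part of the miRNA pool. It had 2525 and 1541 reads in the snrk2.2/3/6 libraries against 5388 and 3700 in WT, and its share of 8.70 and 14.8% overlapped with 15.6 and 12.2% in WT (log2 fold change -0.24, adjusted p = 0.617, edgeR). Per 100 reads of miR166 there were 6.10 and 4.09 reads of miR165 in the snrk2.2/3/6 libraries, against 17.8 and 14.5 in WT, a ratio that neither scale affects. The miR165 guide strand, miR165a-3p/b, matches MIR165a on chromosome 1 (78932 to 78952, minus strand) and MIR165b on chromosome 4 (369856 to 369876, minus strand). Its reads numbered 152 and 63 in the snrk2.2/3/6 libraries against 923 and 501 in WT, and since it differs from the miR166 sequence by 1 base, a sequencing error in a miR166 read could be counted as miR165. The strand paired with it, miR165a-5p (chromosome 1, 79010 to 79030, minus strand), was sequenced with 2 and 0 reads in the snrk2.2/3/6 libraries against 34 and 36 in WT, at least 11.8-fold lower against a floor of 3 reads per library. It was past the threshold in RPTM (adjusted p = 0.00737, edgeR) and as a share (adjusted p = 0.00141, edgeR). In RPTM this call held without snrk2.2/3/6 replicate 1 (adjusted p = 0.0115, edgeR), and was lost without replicate 2 (0.0764), WT replicate 1 (0.952) or WT replicate 2 (0.654). As a share it was lost without WT replicate 1 (adjusted p = 0.123, edgeR) and without snrk2.2/3/6 replicate 2 (0.101).

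miR3932 was the third family with a lower share. All of its reads were of miR3932b-5p, whose sequence matches MIR3932b on chromosome 4 (7890695 to 7890715, minus strand), inside an exon of the protein-coding gene AT4G13575, and also an interval with no annotated gene on the same chromosome (2178984 to 2179004, plus strand). Its reads numbered 219 and 39 in the snrk2.2/3/6 libraries against 520 and 524 in WT. The share was 0.755% (95% Wilson interval 0.662 to 0.861%) and 0.376% (0.275 to 0.513%) in the snrk2.2/3/6 libraries, against 1.5% (1.38 to 1.64%) and 1.72% (1.58 to 1.87%) in WT. Replicate 2 was lower than replicate 1, and both were below WT. The share fell by 1.48 on the log2 scale (SE 0.43, adjusted p = 0.0109, edgeR), and in RPTM the log2 fold change was -2.05 (SE 0.94, adjusted p = 0.235, edgeR). Leaving out any 1 of the 4 libraries ended the call of the share, with adjusted p by edgeR of 0.243 without WT replicate 1, 0.145 without WT replicate 2, 0.0695 without snrk2.2/3/6 replicate 1 and 0.221 without snrk2.2/3/6 replicate 2.

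**Figure D3:**
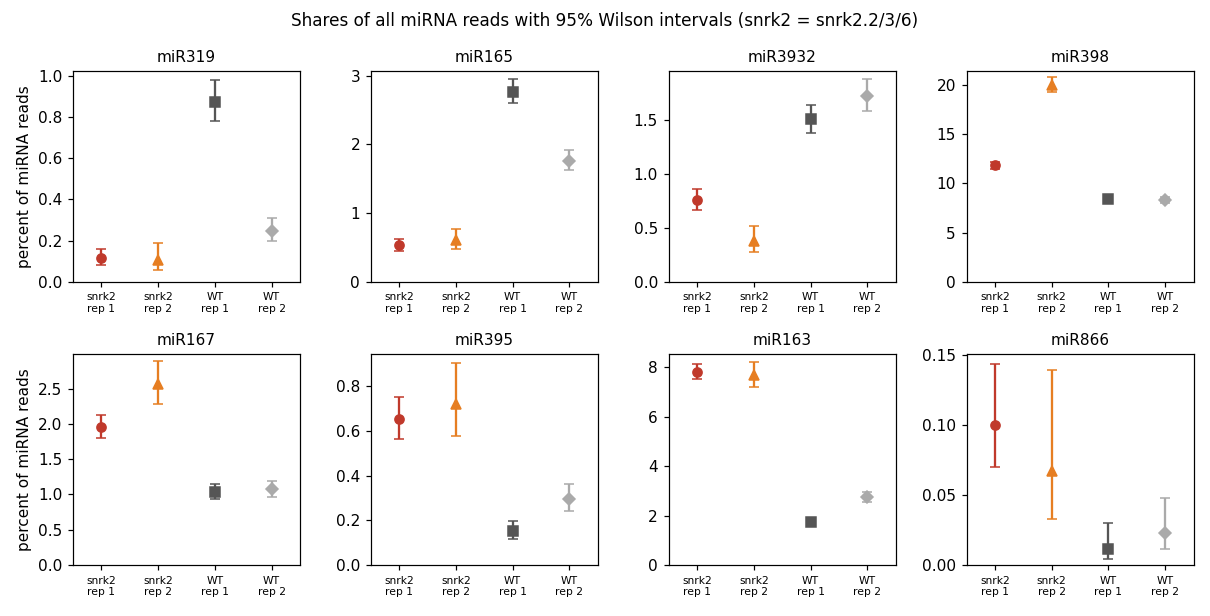
Percent of all miRNA reads in each library for the 8 families whose share passed edgeR's test, with 95% Wilson intervals of counting error, in snrk2.2/3/6 replicates 1 and 2 and then WT replicates 1 and 2. The shares of miR319, miR165 and miR3932 are lower in both snrk2.2/3/6 libraries and those of miR398, miR167, miR395, miR163 and miR866 higher, while in RPTM only miR866 of these 5 was above both WT libraries in both.

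miR163 had the smallest adjusted p of all families as a share. It is a miRNA of 24 nt, longer than the usual 21 nt, and in Arabidopsis it targets methyltransferase genes of the SABATH family. It had 2269 and 797 reads in the snrk2.2/3/6 libraries against 608 and 835 in WT. Its share was 7.82% (95% Wilson interval 7.52 to 8.13%) and 7.67% (7.18 to 8.20%) in the snrk2.2/3/6 libraries, against 1.76% (1.63 to 1.90%) and 2.74% (2.57 to 2.93%) in WT. The mutant libraries, which differed so much in total miRNA, thus had nearly the same share, 3.44-fold higher than in WT on average. The log2 fold change of the share was 1.78 (SE 0.33, adjusted p = 5.18e-05, edgeR). In RPTM replicate 1 was above WT and replicate 2 was within its range, at 1343 and 497 in the snrk2.2/3/6 libraries against 372 and 512 in WT (log2 fold change 1.06, SE 0.84, adjusted p = 0.414, edgeR). The call of the share was lost without WT replicate 1 (adjusted p = 0.149, edgeR) and kept without each of the other 3 libraries (adjusted p from 0.0122 to 0.0475). The sequence lies in the exon of MIR163 on chromosome 1 (24884359 to 24884382, plus strand).

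miR395, which targets ATP sulfurylases and a sulfate transporter and accumulates when sulfate is short, had 189 and 75 reads in the snrk2.2/3/6 libraries against 52 and 90 in WT. Its share was 0.651% (95% Wilson interval 0.565 to 0.751%) and 0.722% (0.577 to 0.904%) in the snrk2.2/3/6 libraries, against 0.150% (0.115 to 0.197%) and 0.296% (0.241 to 0.363%) in WT. The share rose by 1.62 on the log2 scale (SE 0.52, adjusted p = 0.0202, edgeR), and both libraries were more than 200% of the WT mean. In RPTM the values of 112 and 46.8 in snrk2.2/3/6 overlapped with 31.8 and 55.2 in WT (adjusted p = 0.494, edgeR). Of its 2 sequences, miR395a/d/e, from 3 genes on chromosome 1, had 65 and 34 reads in the snrk2.2/3/6 libraries against 11 and 29 in WT and was called as a share (log2 fold change 2.10, adjusted p = 0.0376, edgeR). This call was lost with TMM factors and without any 1 library, with adjusted p by edgeR of 0.369 without WT replicate 1, 0.0796 without WT replicate 2, 0.147 without snrk2.2/3/6 replicate 1 and 0.225 without snrk2.2/3/6 replicate 2, and its log2 fold change then ran from 1.5 to 3.06. miR395b/c/f had 124 and 41 reads against 41 and 61 (log2 fold change 1.37, adjusted p = 0.118, edgeR). For the family, leaving out any 1 library ended the call, with adjusted p by edgeR of 0.338 without WT replicate 1, 0.0761 without WT replicate 2, 0.245 without snrk2.2/3/6 replicate 1 and 0.235 without snrk2.2/3/6 replicate 2.

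miR167, which targets the auxin response factors ARF6 and ARF8, had 567 and 267 reads in the snrk2.2/3/6 libraries against 357 and 326 in WT. Its share was 1.95% (95% Wilson interval 1.80 to 2.12%) and 2.57% (2.28 to 2.89%) in the snrk2.2/3/6 libraries, against 1.03% (0.932 to 1.14%) and 1.07% (0.962 to 1.19%) in WT. The WT libraries were almost equal and both mutant libraries were above them. The log2 fold change of the share was 1.10 (SE 0.37, adjusted p = 0.0217, edgeR). In RPTM it was 0.26 (adjusted p = 0.94, edgeR), and it turned to -0.33 without snrk2.2/3/6 replicate 1. The higher share was that of miR167a-5p/b, with 506 and 232 reads in the snrk2.2/3/6 libraries against 286 and 271 in WT (log2 fold change 1.21, adjusted p = 0.0218, edgeR), from MIR167a and MIR167b on chromosome 3 (8108090 to 8108110 and 23406177 to 23406197, plus strand). miR167d, with the same seed, had 29 and 11 reads against 43 and 40 (log2 fold change -0.32, adjusted p = 0.707, edgeR). The call of the family was lost without WT replicate 1 (adjusted p = 0.285, edgeR), WT replicate 2 (0.130) or snrk2.2/3/6 replicate 2 (0.0829).

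miR398 targets the copper/zinc superoxide dismutases CSD1 and CSD2 and their copper chaperone, and accumulates when copper is short. It had 3431 and 2077 reads in the snrk2.2/3/6 libraries against 2907 and 2534 in WT. Its share was 11.8% (95% Wilson interval 11.5 to 12.2%) and 19.998% (19.2 to 20.8%) in the snrk2.2/3/6 libraries, against 8.41% (8.12 to 8.71%) and 8.33% (8.02 to 8.64%) in WT. Replicate 2, with the fewest miRNA reads, had the highest share. The log2 fold change of the share was 0.93 (SE 0.32, adjusted p = 0.0262, edgeR), against -0.00 in RPTM (adjusted p = 0.997, edgeR), where 2031 and 1295 in snrk2.2/3/6 enclosed 1778 and 1555 in WT. Without WT replicate 1 the adjusted p of the share was 0.337, without WT replicate 2 0.180 and without snrk2.2/3/6 replicate 2 0.221 (edgeR). Nearly all of these reads were of miR398b-3p/c-3p, from MIR398b and MIR398c on chromosome 5 (4691107 to 4691127 and 4694778 to 4694798, plus strand), with 3330 and 2031 in the snrk2.2/3/6 libraries against 2831 and 2466 in WT. By itself this sequence was not past the threshold among the 59 sequences tested (log2 fold change of the share 0.93, adjusted p = 0.0589, edgeR). miR408, another copper-responsive family, had 60 and 38 reads in the snrk2.2/3/6 libraries against 130 and 56 in WT, and its share did not move with miR398 (log2 fold change -0.01, adjusted p = 0.983, edgeR).

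miR866 was above WT on both scales, but on few reads. All of its reads were of miR866-3p, from MIR866 on chromosome 5 (16157838 to 16157857, minus strand). They numbered 29 and 7 in the snrk2.2/3/6 libraries against 4 and 7 in WT. In RPTM this gave 17.2 and 4.36 in the snrk2.2/3/6 libraries against 2.45 and 4.29 in WT, so that replicate 2 was above the higher WT library by a margin far within counting error. With means of 11.75 reads over the 4 libraries and 10.3 over the 6, miR866 passed the minimum of 10 only through snrk2.2/3/6 replicate 1. The family was thus admitted by the group in which it was high, and its place above WT is no independent result. The log2 fold change of the share was 2.31 (SE 0.75, adjusted p = 0.0202, edgeR) and that of RPTM 1.66 (adjusted p = 0.405, edgeR). Leaving out any 1 library ended the call of the share (adjusted p from 0.0652 without WT replicate 2 to 0.285 without WT replicate 1, edgeR; 0.219 without snrk2.2/3/6 replicate 1 and 0.0829 without replicate 2). The calls of miR866 and miR167 were also lost without the filter on low counts.

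Among single sequences, edgeR called 2 of 59 (3.39%) lower and 0 (0%) higher in RPTM, miR319a/b and miR165a-5p, with 10 (16.9%) lower and 0 (0%) higher at an unadjusted p under 0.05. DESeq2 called 4 and limma 6 lower in RPTM, and both called 0 higher. As shares 4 were lower (6.78%), namely miR319a/b, miR165a-3p/b, miR165a-5p and miR3932b-5p, and 4 were higher (6.78%), namely miR163, miR167a-5p/b, miR395a/d/e and miR866-3p, with 6 (10.2%) lower and 11 (18.6%) higher at an unadjusted p under 0.05. Without snrk2.2/3/6 replicate 1, the count of lower sequences in RPTM was 20, without replicate 2 or without WT replicate 1 it was 0, and without WT replicate 2 it was 1. The share counts were 0 lower and 0 higher without WT replicate 1 and likewise without snrk2.2/3/6 replicate 2, 3 lower and 3 higher without snrk2.2/3/6 replicate 1, and 3 lower and 1 higher without WT replicate 2.

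The families that target developmental transcription factors were mostly below WT. Of the 13 families on this list 11 had enough reads to be tested, and 10 of the 11 were below WT in both libraries in RPTM and 7 as shares, against 22 and 15 of the 40 families in all. miR156 alone of the 11 was above WT as a share. By edgeR 1 of the 11 was lower in RPTM (miR319) and 2 as shares (miR165 and miR319), and the median log2 fold change was -1.18 in RPTM and -0.39 as shares, against -0.84 and -0.16 over all families tested. Together the list held 40.9 and 43.9% of the miRNA reads in the snrk2.2/3/6 libraries, against 54.0 and 49.9% in WT. The largest family among them was miR159, a regulator of MYB transcription factors, with 7001 and 2264 reads in the snrk2.2/3/6 libraries against 9493 and 8483 in WT. Its share of 24.1 and 21.8% was below 27.5 and 27.9% in WT without overlap, but by a small step (log2 fold change -0.27, adjusted p = 0.568, edgeR).

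Several smaller families were below WT in both libraries on both scales without passing edgeR's test. miR164, which targets the CUC genes of organ boundaries, had 9 and 10 reads in the snrk2.2/3/6 libraries against 72 and 43 in WT. It was 1 of the 2 families that did not have less in replicate 2, at 15.1% of the WT mean in RPTM in replicate 1 and 17.7% in replicate 2 (log2 fold change -2.59, SE 0.98, adjusted p = 0.119, edgeR; -1.65 as a share, adjusted p = 0.0794). In RPTM miR164 was past the threshold with DESeq2 (adjusted p = 0.0181) and with limma, and over 10 alternatives its adjusted p ran up to 0.848. miR169, which targets NF-YA transcription factors, had 50 and 24 reads in the snrk2.2/3/6 libraries against 144 and 130 in WT. Its log2 fold change was -1.91 in RPTM (adjusted p = 0.235, edgeR) and -1.09 as a share (adjusted p = 0.162, edgeR). These reads were mostly of miR169f-3p, so that the values of the family are mainly those of this 3p strand. The strand miR170-5p/miR171a-5p, which both genes give, had 8 and 6 reads in the snrk2.2/3/6 libraries against 46 and 24 in WT (log2 fold change -2.32 in RPTM, adjusted p = 0.235, edgeR; -1.46 as a share, adjusted p = 0.140). miR394, which targets the F-box gene LCR, had 45 and 14 reads in the snrk2.2/3/6 libraries against 151 and 51 in WT (log2 fold change -1.80 in RPTM, adjusted p = 0.235, edgeR; -1.05 as a share, adjusted p = 0.179). The WT libraries of miR394 were far apart, and over 10 alternatives its log2 fold change ran from -2.81 to -0.82 in RPTM and from -1.57 to -0.19 as a share. Without snrk2.2/3/6 replicate 1, miR169 and miR394 were past the threshold in RPTM (adjusted p = 0.0343 and 0.0326, edgeR). miR824, which targets the MADS-box gene AGL16, had 27 and 9 reads in the snrk2.2/3/6 libraries against 46 and 44 in WT. Its log2 fold change was -1.34 in RPTM (adjusted p = 0.405, edgeR) and -0.61 as a share (adjusted p = 0.534, edgeR). The decline was that of the 3p arm, with 20 and 6 reads in the snrk2.2/3/6 libraries against 41 and 41 in WT. The 5p arm had 7 and 3 against 5 and 3 and was not lower.

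miR156 and miR157, which both target SPL transcription factors of the change from juvenile to adult growth, differed from each other. miR156 had a share of 1.41 and 1.41% in the snrk2.2/3/6 libraries against 0.749 and 0.976% in WT (log2 fold change 0.70, adjusted p = 0.179, edgeR). In RPTM its log2 fold change was -0.03, with replicate 1 above and replicate 2 below both WT libraries. miR157 had a share of 0.383 and 0.376% in the snrk2.2/3/6 libraries against 0.483 and 0.509% in WT, and was below WT on both scales (log2 fold change of the share -0.39, adjusted p = 0.611, edgeR). Per 100 reads of miR157 there were 368 and 374 reads of miR156 in the mutant, against 155 and 192 in WT. miR396, which targets growth-regulating factors, had 1546 and 447 reads in the snrk2.2/3/6 libraries against 1799 and 1698 in WT, with overlapping shares (log2 fold change -0.16, adjusted p = 0.721, edgeR). Within it, there were 130 and 38.4 reads of miR396b-5p per 100 of miR396a-5p in the snrk2.2/3/6 libraries, against 196 and 140 in WT.

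Families of the auxin pathway did not move in 1 direction. miR160, which targets ARF10, ARF16 and ARF17, had 29 and 19 reads in the snrk2.2/3/6 libraries against 78 and 55 in WT, below WT in RPTM but with overlapping shares (adjusted p = 0.30 in RPTM and 0.534 as a share, edgeR). miR390, which triggers TAS3 small RNAs against further ARF genes, had 24 and 12 reads in the snrk2.2/3/6 libraries against 68 and 42 in WT, below WT on both scales (adjusted p = 0.292 and 0.387, edgeR). miR393, which targets the auxin receptors TIR1 and AFB, had 277 and 55 reads in the snrk2.2/3/6 libraries against 115 and 127 in WT. Its share of 0.955 and 0.530% was above 0.333 and 0.417% in WT (log2 fold change 1.0, adjusted p = 0.0659, edgeR). Nearly all of these reads were of the 3p arm, mainly miR393b-3p, so that the higher share was that of this arm. Of the 4 families of this list, 2 were below WT in RPTM in both libraries, while as shares 1 was below and 2 were above. Of all 40 families, 55% were below in RPTM, and 37.5% were below and 25% above as shares.

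miRNAs that target the silencing machinery were below WT or overlapped with it. miR162, which targets DICER-LIKE 1, had 430 and 121 reads in the snrk2.2/3/6 libraries against 825 and 660 in WT, and its share of 1.48 and 1.17% was below 2.39 and 2.17% (log2 fold change -0.78, adjusted p = 0.140, edgeR). miR168, which targets ARGONAUTE1, had 160 and 41 reads in the snrk2.2/3/6 libraries against 175 and 118 in WT, and miR403, which targets ARGONAUTE2, had 589 and 132 against 525 and 491. With their arms pooled, both families overlapped with WT on both scales. Most miR168 reads were of the 3p arm. The sequence miR168a-5p/b-5p alone, with 51 and 12 reads in the snrk2.2/3/6 libraries against 75 and 56 in WT, was below WT on both scales. Its log2 fold change was -1.09 in RPTM (adjusted p = 0.465, edgeR) and -0.42 as a share (adjusted p = 0.592, edgeR). Of the families that target pentatricopeptide repeat (PPR) genes, miR161 had 1390 and 477 reads in the snrk2.2/3/6 libraries against 2612 and 2448 in WT, and its share of 4.79 and 4.59% was below 7.56 and 8.05% (log2 fold change -0.73, adjusted p = 0.0794, edgeR). miR158 had 4718 and 959 reads in the snrk2.2/3/6 libraries against 4956 and 4665 in WT. Its share was 16.3% in replicate 1 and 9.23% in replicate 2, on either side of 14.3 and 15.3% in WT.

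Families that respond to nutrients had shares on both sides of WT. Beside miR395 and miR398 above, miR399, which targets the phosphate regulator PHO2, had 7 and 2 reads in the snrk2.2/3/6 libraries against 32 and 15 in WT, below WT on both scales (log2 fold change of the share -1.64, adjusted p = 0.135, edgeR). The copper list of miR397, miR398, miR408 and miR857 summed to 12 and 20.4% of miRNA reads in the snrk2.2/3/6 libraries, against 8.79 and 8.52% in WT, nearly all of it miR398. Of the 4 families listed as responding to ABA or acting in ABA responses, miR159, miR160, miR168 and miR169, 3 were below WT in both libraries in RPTM and 2 as shares, against 22 and 15 of the 40 families in all. The smallest adjusted p among them was 0.235 in RPTM and 0.162 as a share, both of miR169, which was mostly miR169f-3p (edgeR). Their median log2 fold change was -1.24 in RPTM and -0.43 as shares, and they summed to 25 and 22.6% of miRNA reads in the snrk2.2/3/6 libraries, against 28.6 and 28.9% in WT.

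The young families, here those numbered above miR400 apart from miR403, miR408, miR827 and miR828, were 180 families of which 12 had a mean of at least 10 reads. In RPTM 5 of the 12 were below WT and 1 above, and as shares 3 were below and 3 above, against 22 below and 1 above in RPTM and 15 below and 10 above as shares among all 40. The median log2 fold change was -0.16 in RPTM and 0.46 as shares over the 11 young families tested, a set that includes miR840 and leaves out miR472 and miR858 because its minimum was taken over the 6 libraries. miR5026 was the largest, with 2214 and 531 reads in the snrk2.2/3/6 libraries against 1318 and 1672 in WT, a share of 7.63 and 5.11% that overlapped with 3.81 and 5.50% (adjusted p = 0.303, edgeR). miR825 had the lowest percent of the WT mean of the 40 families in a mutant library, with 13 and 1 reads in the snrk2.2/3/6 libraries against 38 and 28 in WT. Its 1 read in replicate 2 was 3.08% of the WT mean in RPTM (log2 fold change of the share -1.61, adjusted p = 0.0838, edgeR).

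**Figure D4:**
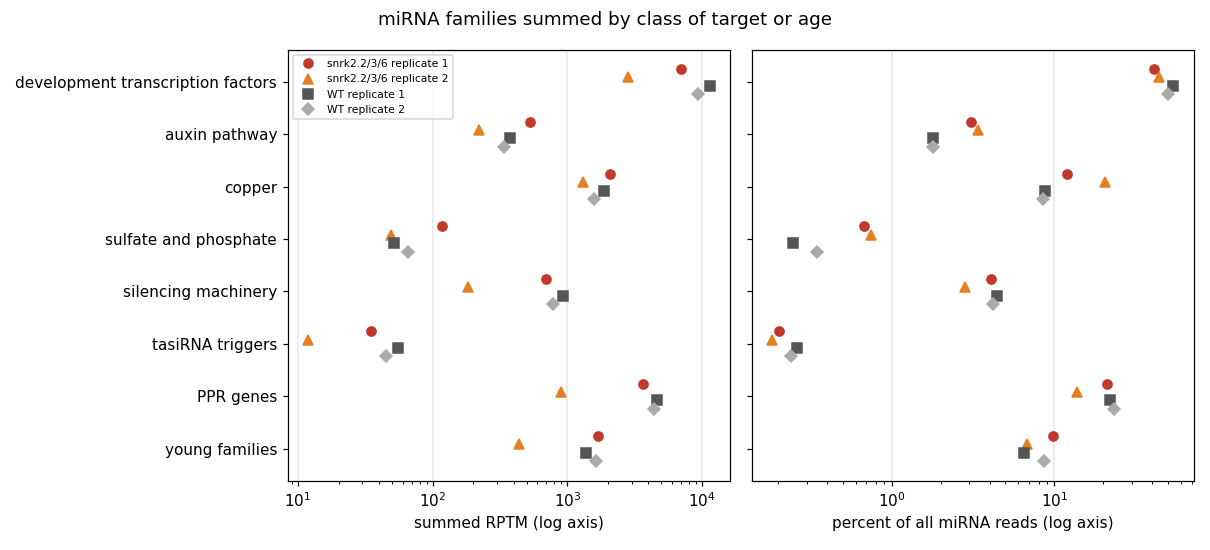
Summed RPTM (left) and summed percent of all miRNA reads (right) of families grouped by the class of their targets or by age, on log axes, with 1 point per library. The developmental list is at 40.9 and 43.9% of miRNA reads in the snrk2.2/3/6 libraries against 54.0 and 49.9% in WT, and the copper list at 12 and 20.4% against 8.79 and 8.52%.

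By length and first base, which the grouping did not use, the pools differed in a few points. Sequences of 24 nt, almost all of them miR163, were 7.82 and 7.67% of miRNA reads in the snrk2.2/3/6 libraries against 1.76 and 2.74% in WT, and those of 22 nt were 0.844 and 0.799% against 0.553 and 0.641%. The 21-nt sequences were 73.8 and 81.1% in the snrk2.2/3/6 libraries against 82.4 and 80.4% in WT, which overlapped. Sequences that begin with T (U in the RNA) were 85.9 and 88.6% in the snrk2.2/3/6 libraries against 91.1 and 89.2% in WT. Of 20 families with at least 10 reads over the 4 libraries on each arm, among sequences whose names give the arm, the ratio of the minor to the major arm was above WT in both mutant libraries for 4 (20%), below for 5 (25%) and overlapping for 11. With the major arm set by the WT reads alone, the counts were 6, 3 and 11, and the choice between these definitions was made after both counts were seen. miR168 is an example with more reads, where 51 and 12 reads of the 5p arm faced 109 and 29 of the 3p arm in the snrk2.2/3/6 libraries, against 75 and 56 facing 100 and 62 in WT. The within-library ratios of related members given above were also chosen after their values were seen, and they carry no test.

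Reads found in a single genotype were few. In both WT libraries but in neither mutant library were 13 sequences, none with more than 5 reads in all, which at this depth is close to the floor of 3 reads (1.78 and 1.87 RPTM in snrk2.2/3/6, 1.83 and 1.84 in WT). The other way round there was 1, miR393a-3p, with 14 and 6 reads in snrk2.2/3/6 and 0 and 0 in WT, at least 3.27-fold higher against that floor per library. The sequence miR393b-3p, which differs from it by T8G counted from the 5′ end, had 261 and 48 reads in the snrk2.2/3/6 libraries against 112 and 124 in WT. These sequences are shown because the base that separates them lies in the seed:
miR393a-3p: aTCATGCTatctctttggatt
miR393b-3p: aTCATGCGatctctttggatt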

How the data were processed

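Small RNA reads of rosette leaves had been trimmed and size-selected (18 to 30 nt) and mapped to TAIR10 by the authors, who then counted exact matches to the mature miRNAs in release 21 of miRBase. The mapping tool is not given in the sources used here. The deposited counts are unnormalized whole numbers. The deposited RPTM signal is the count over the genome-matched total of the library, scaled by the authors to 10000000. A sequence shared by several genes is listed once, and 45 carry more than 1 name, so that their reads cannot be assigned to a gene.

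Genome-matched totals were recovered from counts and RPTM, and 0 values differed from them by more than rounding. Counts were summed per family and tested with edgeR 4.0.16 in R 4.3.3 (glmQLFit and glmQLFTest, all 6 libraries, genotype only, no TMM factors, features averaging 10 or more reads across the 6 libraries), with the genome-matched total (RPTM scale) or the miRNA total (share scale) as library size. Standard errors were derived from the F statistic and the fold change. A fold against libraries at 3 reads or fewer is a lower bound. Alternatives were DESeq2 1.42.0, limma 3.58.1 on log2(RPTM + 1), TMM factors, other filters, both genotypes alone, arms apart, a block on the replicate number, and fits without each library in turn. A crossed block and the Wilson intervals were added after seeing the data. edgeR and limma were tested on simulated data. The other steps used scipy 1.17.1, numpy 2.4.6 and pandas 2.3.3 in Python 3.11.15, with matplotlib 3.10.9 for figures. Positions are exact matches to TAIR10.1 with RefSeq annotation.

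The families, lists and tests were chosen with earlier results of these data known. Named are the 26 families that passed a test, had the most WT reads (10), lay on the same side of WT on both scales or were assayed in the study (miR156, miR160, miR164, miR319, miR396 and miR398). Further families appear as members of the lists.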

Additional observations from a re-analysis of the deposited data

How the results depend on the processing

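Counts of families lower in RPTM (1 as reported) were 3 with DESeq2, 5 with limma, 0 with the 2 genotypes alone, 0 without a filter on low counts, and 0 to 18 when 1 library was left out. Families higher in RPTM (0) were 0 to 1 when 1 library was left out. Families lower as shares (3) were 0 to 2 with 1 library left out, and families higher as shares (5) were 3 without a filter and 0 to 3 with 1 library left out. With TMM factors 3 families were lower and 6 higher, and with the size factors of DESeq2 3 and 7. Without a filter 104 families and 174 sequences were tested, in place of 39 and 59. Sequences lower in RPTM (2) were 4 with DESeq2, 6 with limma, 0 without a filter and 0 to 20 with 1 library left out. Sequences lower as shares (4) were 0 to 3 with 1 library left out. Sequences higher as shares (4) were 7 with the 2 genotypes alone and 0 to 3 with 1 library left out. Families below WT in both libraries in RPTM (22 of 40) were 40 of 102 when at least 1 read was enough. They were 14 when the nearest libraries had to be 1.5 times apart, and 22 to 37 with 1 library left out. Those above in RPTM (1) were 2, 0 and 1 to 15 in the same settings, and 2 with the arms apart. Those below as shares (15) were 27, 7 and 18 to 19, and 7 with separate Wilson intervals. Those above as shares (10) were 4 at 1.5 times, 16 with the arms apart, 5 with separate Wilson intervals and 11 to 17 with 1 library left out. The total of snrk2.2/3/6 was 32.5 to 86.3% of WT with 1 library left out. The counts with at least 1 read were of 102 families on both scales, and those with the arms apart counted the arms of a family separately. The cause of the differences between settings was not tested beyond what the settings themselves change.

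Replicate numbers are shared by label only. The deviations of same-numbered snrk2.2/3/6 and WT libraries correlated with r of -0.42 in RPTM and -0.41 as shares over 39 families, and -0.30 and -0.17 over 59 sequences. With the replicate number as a block, 2 families were lower in RPTM and 0 were lower and 0 higher as shares. With the block crossed, 0 families were lower in RPTM, 7 sequences were lower and 9 higher as shares, and 3 families lay above WT in RPTM. Over the 26 named families and their sequences no called value changed sign. Each genotype had 2 libraries, and 10386 miRNA reads in snrk2.2/3/6 replicate 2 limit families near 10 reads.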

Other observations

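Some sequences outside the rule for named families, chosen after their values were seen, differed from WT on at least 1 scale, on few reads. miR5996, just under the minimum with a mean of 9.5 reads, had 0 and 3 reads in the snrk2.2/3/6 libraries against 17 and 18 in WT, at least 5.88-fold lower against a floor of 3 reads per library. miR843 had 2 and 0 reads in the snrk2.2/3/6 libraries against 12 and 17 in WT, at least 4.87-fold lower. The miR5996 sequence also falls within an exon of UNE15, a protein-coding gene on chromosome 4 (7882848 to 7882869, minus strand), so that reads of that transcript cannot be told apart from it. miR156a-3p, the strand paired with miR156a-5p, had 28 and 8 reads in the snrk2.2/3/6 libraries against 1 and 0 in WT, at least 5.87-fold higher against the same floor, while the guide strand shared by several miR156 genes had 338 and 106 reads against 220 and 267. miR840-5p had 19 and 4 reads in the snrk2.2/3/6 libraries against 2 and 5 in WT (log2 fold change of the share 2.29, adjusted p = 0.0768, edgeR), and in RPTM it overlapped with WT (log2 fold change 1.65, adjusted p = 0.384, edgeR). miR840-5p reached the minimum of 10 reads only through the hyl1-2 libraries, where its family had 70 and 35 reads. Over the 4 compared libraries that family averaged 7.75 reads. No test was made of the others, which were below the minimum of 10 reads over the 6 libraries.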
